A study of Mus musculus with 131 samples.

Results

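The windows described here are 200 bp stretches of the mouse autosomes that were unmethylated in mouse embryonic fibroblasts (MEFs) and methylated in a line of embryonic stem cells (ESCs). A window was chosen where its methylation level was at least 60% in Gjb2-35delG ESCs and at most 10% in MEFs, and where all 3 bisulfite libraries covered it. Of 7409496 covered autosomal windows, 7263 met the rule, which is 0.098%. The level of a window is the fraction of its cytosine calls that were methylated, averaged over the covered cytosines of the window and written as a percentage. The levels in Gjb2-35delG ESCs and MEFs therefore chose the windows and are given as descriptions. The Actin-RFP library had no part in the choice.

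The study placed ESCs into diploid host embryos to obtain mice that carry a Gjb2 mutation. Its 3 bisulfite libraries, all of strain C57BL/6J, came from Actin-RFP ESCs at passage 10, which carry an Actin-RFP transgene, from Gjb2-35delG ESCs at passage 7, which carry the 35delG deletion of the gap junction gene Gjb2, and from wild-type MEFs at passage 2. Each is 1 library of 1 culture, so there is no replicate error, no test was possible between them, and all differences are between libraries. Cell type, line, genotype and passage differ together between these libraries and cannot be told apart.

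DNA methylation in mammals sits mostly on the cytosine of CG dinucleotides and covers most of the genome, while active promoters and enhancers are kept free of it. Enhancers differ between cell types, and short stretches of low methylation away from promoters often mark those in use. Fibroblasts are the matrix-building cells of connective tissue and use the transcription factors of mesenchyme, while ESCs grown from the early embryo keep the genes of pluripotency open.

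5 stretches of member windows that lie just before a gene start show what such windows look like, in the reading direction of the gene, with every CG in capitals (RefSeq, GRCm38.p6). They were chosen for print because their genes have several member windows at the promoter or are known from fibroblasts, and they stop before the transcript begins.
Dnm3os, chr1:162217401-162217600, plus strand: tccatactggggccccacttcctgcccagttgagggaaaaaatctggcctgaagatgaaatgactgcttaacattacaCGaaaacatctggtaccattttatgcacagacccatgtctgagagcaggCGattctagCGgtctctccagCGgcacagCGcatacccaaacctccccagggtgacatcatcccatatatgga
Postn, chr3:54359017-54359200, plus strand: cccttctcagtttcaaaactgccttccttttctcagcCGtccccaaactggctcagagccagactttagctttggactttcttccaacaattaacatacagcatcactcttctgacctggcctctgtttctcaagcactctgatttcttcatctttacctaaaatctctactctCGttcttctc
Ltbp1, chr17:75178601-75178780, plus strand: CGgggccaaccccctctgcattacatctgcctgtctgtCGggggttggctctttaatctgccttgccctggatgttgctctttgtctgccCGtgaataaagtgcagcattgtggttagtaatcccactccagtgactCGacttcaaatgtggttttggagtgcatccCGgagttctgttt
Mrtfb, chr16:13358201-13358400, plus strand: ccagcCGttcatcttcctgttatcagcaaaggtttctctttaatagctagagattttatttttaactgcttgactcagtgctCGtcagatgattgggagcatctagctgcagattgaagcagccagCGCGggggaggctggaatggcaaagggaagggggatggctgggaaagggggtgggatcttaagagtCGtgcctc
Aen, chr7:78895801-78895926, plus strand: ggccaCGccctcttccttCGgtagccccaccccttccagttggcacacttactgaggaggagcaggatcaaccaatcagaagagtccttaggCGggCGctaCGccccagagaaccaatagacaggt
The Postn stretch holds 2 CGs in 184 bases, and the Dnm3os, Ltbp1, Mrtfb and Aen stretches hold 5 each. The Aen stretch is only the part of its window that lies before the start, and the whole window had 25 covered cytosines.

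Calls numbered 319 M in the Actin-RFP library, 288 M in the Gjb2-35delG library and 317 M in the MEF library. Over the member windows the median was 26 calls per window in Actin-RFP ESCs, 22 in Gjb2-35delG ESCs and 23 in MEFs, and the thinnest windows had 5 calls. The average level of all covered autosomal windows was 38.5% in Actin-RFP ESCs, 67.6% in Gjb2-35delG ESCs and 79.1% in MEFs. Promoters of 7 fibroblast marker genes had a median level of 22.3% in Actin-RFP ESCs, 39.2% in Gjb2-35delG ESCs and 8.31% in MEFs, and MEFs were the lowest at 4 of the 7. Promoters of 6 pluripotency markers, such as Pou5f1 and Nanog, had medians of 3.33% in Actin-RFP ESCs, 4.75% in Gjb2-35delG ESCs and 45.3% in MEFs, and MEFs were the highest at 5 of the 6. MEFs were also the highest at all 4 epithelial markers, both endothelial markers and 2 of 3 blood markers with a start in the annotation.

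By construction, member windows averaged 73.3% in Gjb2-35delG ESCs and 5.17% in MEFs, and 1881 of them (25.9%) had no methylated call in MEFs. In the Actin-RFP library they averaged 36.4% ± 16.5 (SD over 7263 windows), with a median of 35.7%. Windows just inside the MEF limit, at 8 to 10%, averaged 36.8% in Actin-RFP ESCs, and windows just outside it, at 10 to 12%, averaged 37.3%. Windows just inside the Gjb2-35delG limit, at 60 to 62%, averaged 28.9% in Actin-RFP ESCs, and those just outside, at 58 to 60%, averaged 29.5%. The Actin-RFP level was thus similar on both sides of each limit.

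Of the 7263 windows, 4041 (55.6%) lay between 30 and 60% in Actin-RFP ESCs, against 51.5% of all covered windows. A further 2269 (31.2%) lay between 10 and 30%, against 25.8% of all, and 587 (8.08%) were at 60% or more, against 14.4% of all. Intermediate levels in this library were therefore common over all covered windows as well. A further 366 member windows (5.04%) were at 10% or less in Actin-RFP ESCs, so that fibroblasts were not the only cells in which these were unmethylated, against 8.28% of all covered windows and 2.54% of windows at 60% or more in Gjb2-35delG ESCs. With at least 20 calls in each library, 3037 windows remained, and 33 of them (1.09%) were at 10% or less and 182 (5.99%) at 60% or more in Actin-RFP ESCs, against 6.44% and 13.5% of all windows of that depth. Actin-RFP ESCs were below Gjb2-35delG ESCs in 98.4% of member windows, against 94.6% of all covered windows. They were below by 30 points or more in 67.1% of member windows, against 48.2% of all covered windows. The Gjb2-35delG limit in the rule favours both of these differences, since only 74.4% of all covered windows reached 60% in that library. Actin-RFP ESCs were 30 points or more above MEFs in 51.5% of member windows and in 0.278% of all covered windows, a gap that the MEF limit sets up.

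Among windows at 60% or more in Gjb2-35delG ESCs, member windows were lower in Actin-RFP ESCs than the others. With the others weighted to the same Gjb2-35delG level and number of covered cytosines, the averages were 36.4% for member windows and 41.6% for the other 5501773 windows, a difference of -5.27 points. The difference was negative in each of 8 steps of the Gjb2-35delG level, from -4.11 points at 60 to 65% to -12.7 points at 95 to 100%. The Actin-RFP level did not rise with the MEF level until MEFs were above 70%. Actin-RFP levels weighted in the same way over the Gjb2-35delG steps were 36.6% where MEFs were above 10 and up to 20%, 36.9% at 20 to 30%, 35.9% at 30 to 50% and 36.5% at 50 to 70%. They were 40.6% where MEFs were at 70 to 90% and 45.6% above 90%. The member windows were therefore level with windows of partial methylation in MEFs, and only windows of high methylation in MEFs stood higher.

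**Figure D1:**
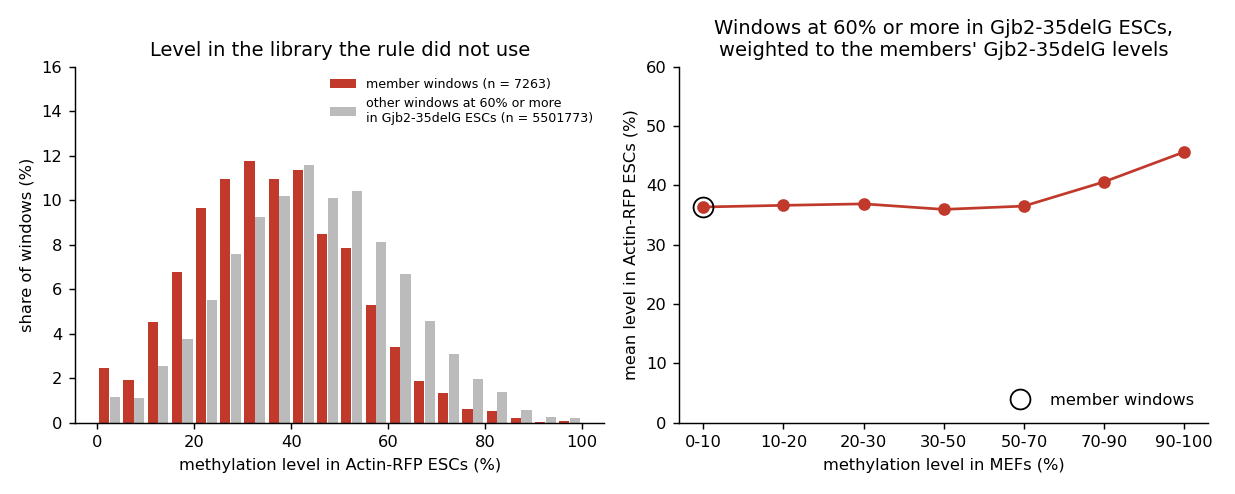
Left, share of windows (%) against the methylation level in Actin-RFP ESCs (%) in steps of 5 points, for member windows (red) and the other windows at 60% or more in Gjb2-35delG ESCs (grey). Right, the mean Actin-RFP level (%) of windows grouped by their MEF level (%), weighted to the Gjb2-35delG levels of member windows, which stays between 35.9 and 36.9% up to a MEF level of 70% and reaches 45.6% above 90%.

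The files give for each window the number of covered cytosines, counted on both strands, so that 1 fully covered CG counts as 2. Member windows had a median of 4 covered cytosines, which is also the median of all covered autosomal windows and of the windows of the opposite rule (at most 10% in Gjb2-35delG ESCs and at least 60% in MEFs, met by 58003 windows or 0.783%). The 78387 windows that were at most 10% in both of those libraries had a median of 16. Member windows made up 1.01 per 1000 covered windows with 1 or 2 cytosines, 0.794 with 3 or 4, 1.48 with 11 to 20, and 0.589 with more than 20. Only 28 member windows had more than 20 covered cytosines, and those averaged 24.1% in Actin-RFP ESCs, 71.1% in Gjb2-35delG ESCs and 5.48% in MEFs. Of all 112542 windows at 10% or less in MEFs, 68.8% were below 10% in Gjb2-35delG ESCs as well.

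Most member windows stood alone. They formed 6494 runs of adjoining windows, of which 5860 were single windows, 527 had 2 windows, 83 had 3, 20 had 4 and 4 had 5. Windows in runs of 2 or more made up 19.3% of the total. The mean Actin-RFP level was 35.8% in single windows, 38.5% in runs of 2, 38.7% in runs of 3, 41.1% in runs of 4 and 47.3% in runs of 5, the last over 20 windows. Of the 5426 single windows with a covered neighbour, 56.9% had one at 30% or less in MEFs and 43.1% did not. Among the 8720 covered windows next to single ones, 45.3% were at 30% or less and 10.8% at 10% or less in MEFs.

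The neighbourhood of the windows was followed to 2000 bp on either side. At 200 bp to either side, MEFs averaged 33.7%, at 400 bp 48.8% before and 49% after, at 1000 bp 65.8% before and 66.1% after, and at 2000 bp 70.8% on both sides. Over the same span Gjb2-35delG ESCs stayed between 66.4 and 68.5% and Actin-RFP ESCs between 38.7 and 40.2%. Actin-RFP ESCs were at 36.4% in the member windows themselves. The dip at the member windows themselves is set by the rule, while MEF levels were still reduced several windows away. At 2000 bp MEFs were still below their average of 79.1% over all covered autosomal windows. Around single windows with 1 or 2 covered cytosines, MEFs were at 47.1% before and 47.4% after at 200 bp, and at 75.1% before and 74.8% after at 2000 bp.

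**Figure D2:**
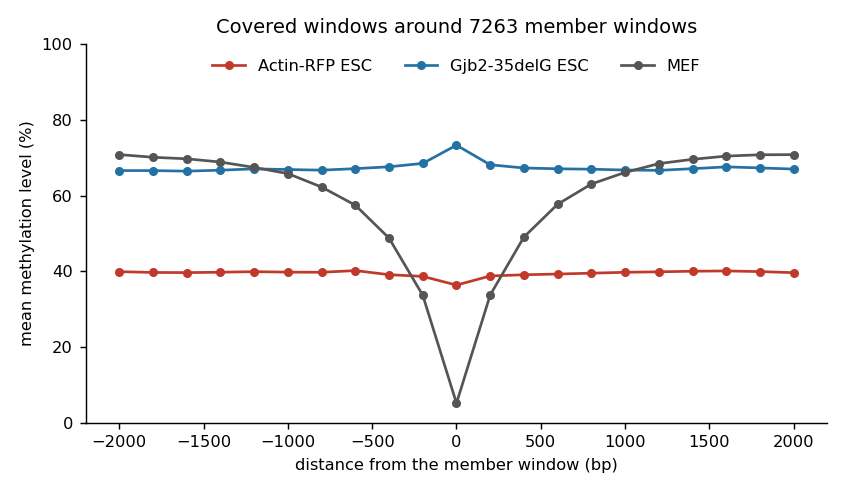
Mean methylation level (%) of covered windows at distances of up to 2000 bp from member windows, for Actin-RFP ESCs (red), Gjb2-35delG ESCs (blue) and MEFs (grey). The values at 0 bp in Gjb2-35delG ESCs and MEFs are set by the rule. The MEF level is 70.8% at 2000 bp, against 79.1% over all covered autosomal windows.

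Member windows were mainly distal, as were covered windows in general, but less so. Positions refer to the gene starts in the RefSeq promoter table, which holds 27025 genes and none on chromosome 18, so 278 member windows there were not placed. Of the other 6985, 354 (5.07%, Wilson 95% interval 4.58 to 5.61) overlapped a promoter, taken as 1000 bp before to 500 bp after a start. The same share was 4.49% for windows of the opposite rule, 50.6% for windows low in both Gjb2-35delG ESCs and MEFs, and 2.37% for all covered windows, or 2.45% once these were weighted to the covered cytosines of member windows. A further 3687 member windows (52.8%) lay in gene bodies, against 51% of all covered windows, and 2944 (42.1%) lay between genes, against 46.6%. The median distance to the nearest start was 27463 bp for member windows, 15636 bp for the opposite rule and 36883 bp for all covered windows. Intervals cover counting error only, and neighbouring windows are not independent. Exon and intron structure was not used here.

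**Figure D3:**
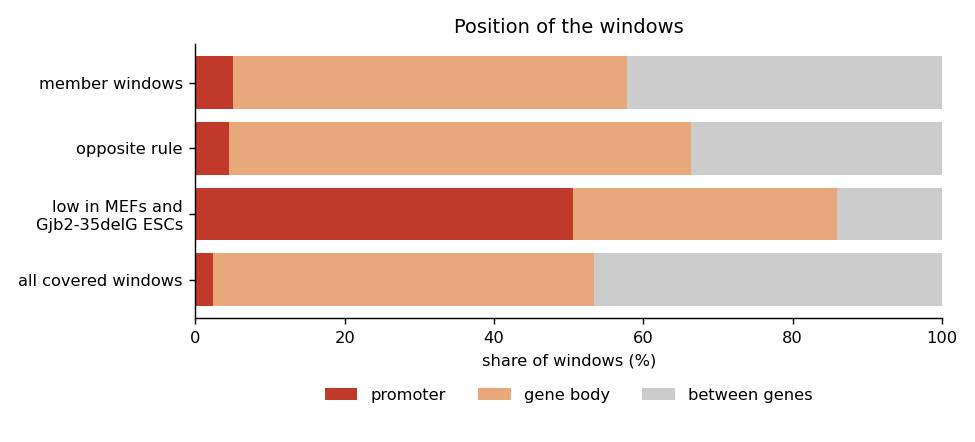
Share of windows (%) at promoters, in gene bodies and between genes for member windows, windows of the opposite rule, windows low in Gjb2-35delG ESCs and MEFs, and all covered autosomal windows. Promoters hold 5.07% of member windows and 50.6% of windows low in both libraries.

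The Actin-RFP level was lowest at promoters. It averaged 32.6% ± 16.7 at 354 promoter windows, 37.4% ± 16.4 at 3687 gene body windows and 35.5% ± 16.7 at 2944 windows between genes (SD over windows). Other windows at 60% or more in Gjb2-35delG ESCs averaged 44.1% at promoters, 45% in gene bodies and 42.8% between genes. Promoter windows had a median of 6 covered cytosines.

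Chromosomes carried the windows in similar density, from 0.744 per 1000 covered windows on chromosome 16 to 1.14 on chromosome 5.

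Of 16457 protein-coding genes with a start, 172 (1.05%) had a member window at the promoter, 31 had at least 2 and 13 at least 3. Among the 12 genes with the most, 2 are well known from fibroblasts. Postn, which encodes the matrix protein periostin, had 3 adjoining windows before its start (chr3:54358601-54359200). They were at 40.4%, 29.2% and 29.2% in Actin-RFP ESCs, at 66.9%, 76.4% and 62.4% in Gjb2-35delG ESCs and at 8.48%, 7.0% and 9.09% in MEFs. This order of libraries is not particular to Postn. Of all 7263 member windows, Actin-RFP ESCs were above MEFs in 7042 and below Gjb2-35delG ESCs in 7144. Over all 14 covered windows of the Postn promoter, MEFs were at 35.8%.

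Ltbp1, whose product holds latent TGF-beta in the matrix, had 3 adjoining windows across a start inside its gene body (chr17:75178401-75179000). They were at 41%, 29% and 52.9% in Actin-RFP ESCs, at 83.2%, 66.8% and 71.4% in Gjb2-35delG ESCs and at 3.43%, 2.60% and 6.67% in MEFs. Over all 16 covered promoter windows of Ltbp1, Actin-RFP ESCs had 32.4%, Gjb2-35delG ESCs 49.8% and MEFs 21.7%. Mrtfb, a cofactor of serum response factor that drives actin and contractile genes, had 3 adjoining windows across an internal start (chr16:13358001-13358600). They were at 26.6%, 22.2% and 25.9% in Actin-RFP ESCs, at 74.3%, 67.7% and 60.1% in Gjb2-35delG ESCs and at 9.23%, 0% and 9.63% in MEFs.

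A different pattern was seen at Aen, a nuclease gene induced by p53. Pooled over its 3 member windows, Aen had 3.13% methylated calls in Actin-RFP ESCs (Wilson 1.71 to 5.67, 319 calls), 70.8% in Gjb2-35delG ESCs (61.8 to 78.4, 113 calls) and 7.76% in MEFs (4.14 to 14.1, 116 calls). Here the Actin-RFP level was at the MEF level and not between the others. Odf2l, with 10.5% in Actin-RFP ESCs (7.81 to 14), 75.6% in Gjb2-35delG ESCs (70.9 to 79.8) and 4.22% in MEFs (2.48 to 7.09), and Gask1b, with 11.2% (8.18 to 15.2), 72.3% (66.5 to 77.4) and 4.17% (1.92 to 8.79) in the same order of libraries, were close to that pattern. The Actin-RFP level is the one that the rule left free, and it was lower at these 3 genes than at Postn, Ltbp1 and Mrtfb. The genes were grouped by this level itself, and a difference between them was not tested. At Trpm3, another gene with 3 promoter windows, the counting interval in Actin-RFP ESCs was 10.6 to 26.2. That interval overlapped those of Odf2l and Gask1b and also that of Mrtfb (20.3 to 31.7). Over all 7263 member windows the Actin-RFP level had an SD of 16.5 points.

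Slc6a5, the neuronal glycine transporter, had the most promoter windows, 4, at 29.95% in Actin-RFP ESCs (24.3 to 36.4), 66.5% in Gjb2-35delG ESCs (58.9 to 73.2) and 6.12% in MEFs (3.54 to 10.4). Mfsd9, the cation channel gene Trpm3, the cyclic AMP phosphodiesterase gene Pde4b, Tmem176a and Tmem176b had 3 windows each, at 17.1 to 46% in Actin-RFP ESCs. Tmem176a and Tmem176b share the same 3 windows, at 46% in Actin-RFP ESCs, 75.7% in Gjb2-35delG ESCs and 4.55% in MEFs.

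Some genes of the fibroblast lists had single promoter windows of the same kind. Among genes with a start, 3 of 22 matrix and surface genes had a promoter window, Postn included. So did 1 of 18 contractile genes and 1 of 27 mesenchyme transcription factors, beside 172 of 16457 protein-coding genes (1.05%). The Hox, endothelial and hepatic and gut lists had 1 of 22, 1 of 9 and 1 of 8. Col1a2 and Col3a1 encode chains of fibrillar collagen, Acta2 encodes smooth muscle actin, and Tcf21 is a transcription factor of fibroblast precursors. The Col1a2 window (chr6:4506001-4506200) had 50% in Actin-RFP ESCs (37.1 to 62.9), 72.6% in Gjb2-35delG ESCs (62.9 to 80.6) and 6.80% in MEFs (3.33 to 13.4). The Col3a1 window (chr1:45311801-45312000) had 47.7% in Actin-RFP ESCs (33.8 to 62.1), 86.1% in Gjb2-35delG ESCs (71.3 to 93.9) and 4.35% in MEFs (1.20 to 14.5). These collagen windows were thus near 50% in the line that the rule did not use. Over all 6 covered windows of the Col1a2 promoter, Actin-RFP ESCs had 22.3%, Gjb2-35delG ESCs 39.2% and MEFs 8.31%. Over all 5 of the Col3a1 promoter the levels were 49.1%, 66.4% and 20% in the same order of libraries. The Acta2 window (chr19:34255201-34255400) had 33% in Actin-RFP ESCs (24 to 43.3), 69.0% in Gjb2-35delG ESCs (50.8 to 82.7) and 9.62% in MEFs (5.31 to 16.8). The Tcf21 window (chr10:22819801-22820000) had 25% in Actin-RFP ESCs (12.7 to 43.4), 63.0% in Gjb2-35delG ESCs (44.2 to 78.5) and 9.23% in MEFs (4.30 to 18.7). Promoter windows were also found at Hoxd1 and, outside mesenchyme, at the endothelial factor Erg and the liver factor Hnf4a. At Erg and Hnf4a the Actin-RFP level rested on only 7 and 17 calls. A single window does not stand for its promoter. Over all covered windows of the promoter, MEFs were at 62.1% at Erg and 83.7% at Hnf4a. They were at 7.02% at Hoxd1, 30.8% at Acta2 and 17.3% at Tcf21.

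Gene bodies held the larger clusters. Of 20665 autosomal protein-coding genes, 1865 (9.02%) had a member window in the body or promoter. The 8 genes with the most were Dnm3, a dynamin of membrane fission, with 45, Gata4, a transcription factor of heart and gut, with 21, Trio with 17, Frmd4a with 16, the heart and forelimb factor Tbx5 with 16, Lrmda and the RNA-binding Rbms3 with 12 each, and Ntm with 11. Length counts in such an order. Per 1000 covered windows, Gata4 had 67.5, Tbx5 48.2, Dnm3 27.3 and Trio 13.3, while Lrmda, Rbms3 and Ntm had 3.59, 3.19 and 3.35, and all protein-coding genes together had 0.978.

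Pooled over its windows, Gata4 had 26.1% in Actin-RFP ESCs (23.9 to 28.5), 70.6% in Gjb2-35delG ESCs (67.9 to 73.2) and 5.10% in MEFs (4.02 to 6.45). Tbx5 had 33.3% in Actin-RFP ESCs (30.6 to 36.2), 68.7% in Gjb2-35delG ESCs (65.1 to 72.1) and 8.73% in MEFs (6.88 to 11). Dnm3 had 49.2% in Actin-RFP ESCs (46.9 to 51.4), 77.4% in Gjb2-35delG ESCs (75.5 to 79.2) and 6.05% in MEFs (5.15 to 7.11). The counting intervals of the 3 genes in Actin-RFP ESCs did not overlap. These intervals cover counting error only, and neighbouring windows of a gene are not independent. Over all 7263 member windows the Actin-RFP level had an SD of 16.5 points. The genes were named for their many member windows, and a difference between them was not tested. Over all covered windows of the gene, Gata4 had 30.8% in Actin-RFP ESCs, 56.7% in Gjb2-35delG ESCs and 43% in MEFs, and Tbx5 had 29.9%, 55.1% and 42% in the same order of libraries. Dnm3 had 42.2%, 73.8% and 72.5%, so that the bodies of Gata4 and Tbx5 were lower than that of Dnm3 in each of the 3 libraries.

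Lists of genes by cell type gave the following counts. Of 48 mesenchyme transcription factors, 21 had a member window (43.8%), and of 36 genes of fibroblast matrix and surface 13 did (36.1%), beside 9.02% of all protein-coding genes. In windows per 1000 covered these lists had 4.80 and 4.69. Among the mesenchyme factors with several windows were Tbx5 with 16, Ebf2 with 7, Runx2 with 6 and Tcf21 with 5 in a gene of only 17 covered windows. The matrix and surface genes were led by Pdgfrb, the receptor for platelet-derived growth factor, with 6, and by Col1a1, Fap and Postn with 3 each. Col1a1 had 29.9% in Actin-RFP ESCs (25.4 to 34.9) over its 3 body windows.

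Of 24 genes of TGF-beta and BMP signalling 9 had a member window (37.5%), with 4 windows each in the ligands Tgfb2 and Tgfb3 and in the mediator Smad3. Of 22 genes of Wnt, FGF and Hedgehog signalling 9 had one (40.9%), among them Gli2, Gli3 and Fgfr2. Of 19 contractile genes 5 had one (26.3%), led by Palld with 8. In windows per 1000 covered these 3 lists had 3.50, 2.37 and 2.62, beside 0.978 for all protein-coding genes, of which 9.02% had a member window. None of 20 epithelial genes, 15 trophectoderm genes or 16 genes of blood and macrophages had one, over 1773, 1228 and 2492 covered windows. At the density of all protein-coding genes these lists would hold 1.73, 1.20 and 2.44 windows, so that a count of 0 is close to the background. For the pluripotency list it was 2 of 22 genes (9.09%), Esrrb and Nr5a2, with 1.94 windows per 1000, and for the neural list 2 of 17 (11.8%), with 1.20 per 1000. The germline list had 2 of 17 genes (11.8%) and 0.903 per 1000, and the list of AP-1 and immediate early genes had 1 of 18 (5.56%). The endothelial list had 3 of 16 genes (18.8%) and 1.06 per 1000, and the Hippo outputs had 4 of 16 (25%) and 1.22 per 1000. The Hox genes, with 6 of 39 (15.4%), had 6.58 per 1000, a higher density than the mesenchyme and fibroblast matrix lists, from 8 windows. The hepatic and gut list had the highest density, 15.3 per 1000, but 21 of its 23 windows were those of Gata4. The median gene of each list, and of all protein-coding genes, had 0 member windows per 1000.

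**Figure D4:**
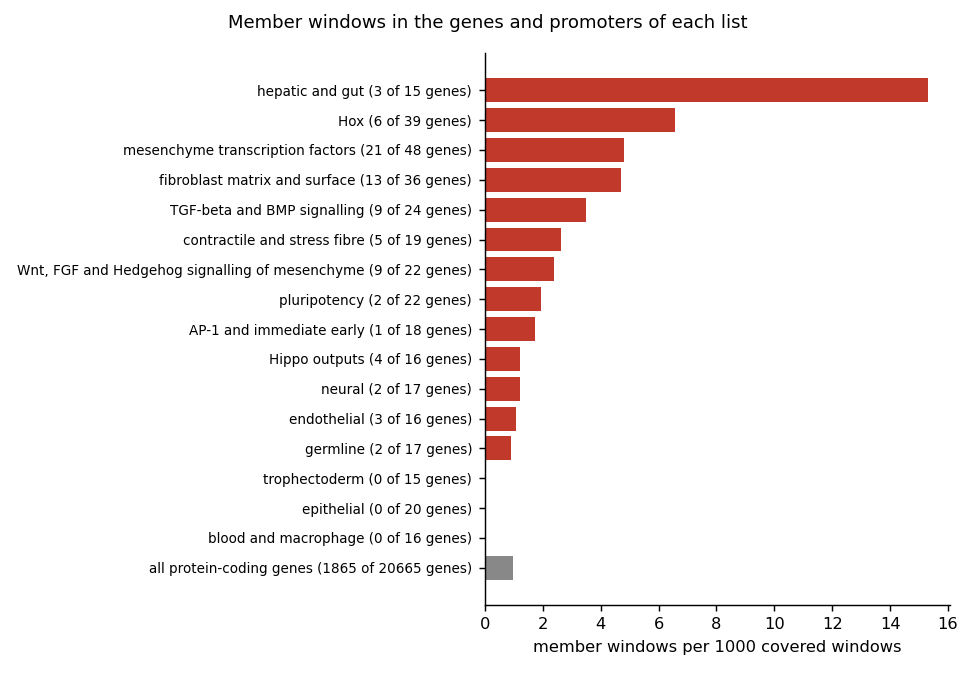
Member windows per 1000 covered windows in the bodies and promoters of the genes of each list, with the number of genes that hold at least 1 and all protein-coding genes in grey. The hepatic and gut bar rests on Gata4, and the Hox, mesenchyme and fibroblast matrix lists stand at 6.58, 4.80 and 4.69 per 1000 beside 0.978.

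The longest runs had 5 windows, and 1 of the 4 lay at the start of Dnm3os. Dnm3os is a long noncoding RNA read from the strand opposite to Dnm3, and it is the host of miR-199a-2, a microRNA abundant in mesenchyme. It lies inside the body of Dnm3, so its member windows are also among the 45 counted for Dnm3. The run (chr1:162217401-162218400) covered the first sequence printed above and held 51.6% in Actin-RFP ESCs (46.1 to 57.0, 318 calls), 81.1% in Gjb2-35delG ESCs (74.7 to 86.3, 175 calls) and 3.46% in MEFs (1.89 to 6.25, 289 calls). Between 2000 bp before and 3200 bp after the start, 16 of 22 covered windows were members and 19 were at 10% or less in MEFs. Their mean level was 46.4% in Actin-RFP ESCs, 75.5% in Gjb2-35delG ESCs and 10.7% in MEFs. From 15000 to 2000 bp before the start the means were 45.6%, 73.6% and 62.9% in the same order of libraries, and from 8800 to 15000 bp after it they were 43.4%, 75.4% and 86.6%. From 3200 to 8800 bp after the start they were 33.9%, 69.6% and 22.5%, so that the ESC levels were lower there as well.

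**Figure D5:**
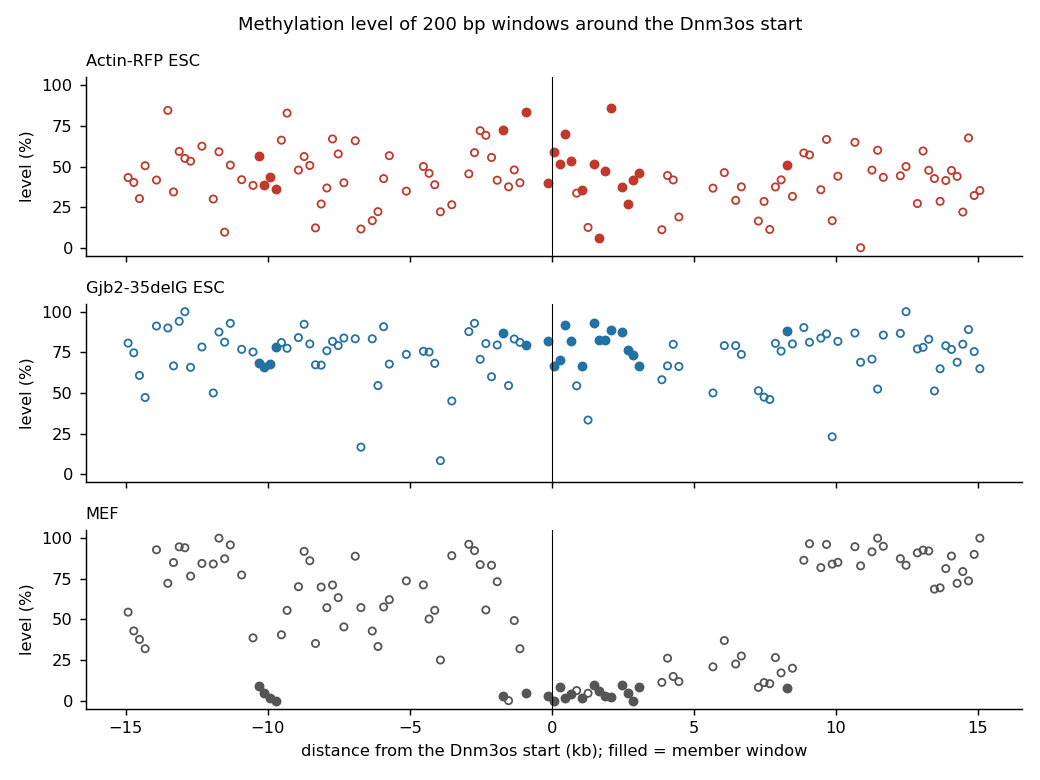
Methylation level (%) of each covered 200 bp window against the distance (kb) from the Dnm3os start, in Actin-RFP ESCs (top), Gjb2-35delG ESCs (middle) and MEFs (bottom), with member windows filled. MEF levels are low from the start to beyond 8 kb, and 16 of 22 covered windows near the start are members.

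The window that holds the miR-199a-2 hairpin had 51.3% in Actin-RFP ESCs (42.2 to 60.3, 113 calls), 70.0% in Gjb2-35delG ESCs (39.7 to 89.2, 10 calls) and 8.0% in MEFs (2.22 to 25, 25 calls). Its mature sequences, with the seed (bases 2 to 8) in capitals, are those of a microRNA with both arms in RefSeq, and their seeds differ.
mmu-miR-199a-5p: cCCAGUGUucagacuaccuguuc
mmu-miR-199a-3p: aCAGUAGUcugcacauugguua
Of 919 autosomal hairpins in the table, only this one and Mir149 overlapped a member window, and the Mir149 window rested on 0 of 5 calls in MEFs, which allows up to 43.4%.

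The other 5-window runs lay in Fgf14, an intracellular modulator of sodium channels (chr14:124676201-124677200), in Ddr2, a collagen receptor of fibroblasts (chr1:170110201-170111200), and 142642 bp from Parp8 (chr13:116707201-116708200). They held 41.4%, 47.9% and 43.8% in Actin-RFP ESCs, 76.2%, 76.5% and 75.7% in Gjb2-35delG ESCs, and 7.77%, 5.26% and 5.56% in MEFs. At Ddr2 the counting interval in Actin-RFP ESCs was 42.3 to 53.7. Of the 8 named runs of 4 windows, 5 lay in the bodies of Arhgef28, Slc6a5, Helt, Adgrl3 and Slc38a4 and 3 lay between genes, 52322 bp from the muscle and heart factor Mef2c, 1179 bp from the heart factor Irx4 and 46475 bp from A430057M04Rik. The lowest Actin-RFP level of the 12 runs was 17.7% at Adgrl3 (14.1 to 22.1), and the highest was 51.6% at Dnm3os.

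The single windows with the most covered cytosines and at least 20 calls in each library lay near Erfl, Cyp4a12a, Foxf2, Scarb1, Lhx9, Tcf20, Tmem33 and Kif1a, with 26 to 35 covered cytosines. The Lhx9 window (chr1:138841601-138841800), inside the gene of a LIM homeobox factor, had 5.80% in Actin-RFP ESCs (2.97 to 11, 138 calls), 80.4% in Gjb2-35delG ESCs (72.1 to 86.7, 112 calls) and 5.26% in MEFs (3.04 to 8.97, 228 calls). The window 10416 bp from Foxf2, a factor of fibroblasts and pericytes, had 28.3% in Actin-RFP ESCs (23.4 to 33.7), 73.0% in Gjb2-35delG ESCs (66.3 to 78.7) and 5.85% in MEFs (3.3 to 10.2). The other 6 ranged from 12.2 to 32.3% in Actin-RFP ESCs.

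Promoter sequences could be read for the starts that a member window touches within 250 bases before to 50 after the start. There were 144 such sequences among 31223, of 136 genes, with a median of 5 CGs, against 7 over all. The letters of 16 motifs were searched on both strands, with overlaps between motifs left in. AP-1 (TGANTCA) was in 13 of the 144 (9.03%, Wilson 5.35 to 14.8), against 9.87% of the other promoters weighted to the same number of CGs and 7.83% of all. TEAD (GGAATG) was in 21.5% (15.6 to 28.9), against 17.1% of the others at the same CG count and 14.6% of all. The E-box CAGCTG was in 25.7% (19.3 to 33.4), against 18.4% and 16.4%. RUNX (TGTGGT) was in 19.4% (13.8 to 26.7), against 20.2% and 16.7%, and GGGCGG, the box of KLF and SP factors, was in 16.7% (11.5 to 23.6), against 18.4% and 36.1%. The E-box CACGTG was in 1.39% (0.382 to 4.92), against 6.06% and 7.16%. The printed Mrtfb stretch holds the AP-1 letters. Of the remaining motifs, the ETS site CCGGAAG was found in 3.47% (1.49 to 7.87), against 5.09% and 9.03%. The octamer read by POU factors was searched as ATGCAAA, the SOX site as CATTGTT, the site of the C/EBP family as TTGCNNAA, one arm of the NFI site as TTGGCA, the GATA site as AGATAA and the core of the homeobox site as TAATTA. The NRF1 site was searched as GCGCATG, the ZFP57 site as TGCCGC and CTCF by its core. For each of these 10, ETS included, the share in other promoters at the same CG count lay inside the interval of the members.

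RNA was deposited for single cells of E4.0 blastocysts and not for these cultures. RFP cells carry the same kind of transgene as the Actin-RFP ESCs and GFP cells carry Actin-GFP. The 55 RFP cells and 40 GFP cells were summed to 1 sample each, so there is no test. Of the 172 genes with a member window at the promoter, 88 (51.2%) were in the table, against 64.2% of protein-coding genes with a start. Counts scaled to CPM reached 10 in RFP cells for 23 of the 172 (13.4%), against 33% of all such genes, so these were mostly genes with little RNA in blastocysts. On the scale of log2(CPM + 1), RFP over GFP cells had a median difference of -0.02 for the 88 genes and 0.07 for all 10563. At least 1 higher in RFP cells were 20 (22.7%, against 24.5% of all), and at least 1 lower were 24 (27.3%, against 22.3% of all), shares near those of all genes. Aen had 79.3 CPM in RFP cells (exact Poisson 78.4 to 80.3) and 59.7 in GFP cells (58.7 to 60.7), and Mrtfb had 27.3 in RFP cells (26.7 to 27.9) and 23.9 in GFP cells (23.3 to 24.6). Col1a2 had reads in 1 RFP cell and in 0 GFP cells, and Acta2 in 1 and 3. The intervals cover counting error only.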

How the data were processed

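Libraries of bisulfite-converted DNA were ligated to adapters as single strands (design text). The build, mm10, is from the submitters' processing notes, while the methylation caller and the aligner were not given in the sources used here. For each 200 bp window the authors deposited the methylation fraction, averaged over covered cytosines, and counts of methylated calls, unmethylated calls and covered cytosines. Each covered cytosine had at least 5 calls. That these cytosines are of both strands was read from the values: of 16599 windows inside RefSeq promoter sequences, 2.51% exceeded the number of cytosines of both strands in CGs and 69.9% exceeded the number of CGs. The deposited RNA values are a signal, reads divided by 1 factor per cell by the authors, and 100% of them gave whole reads within 0.01.

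Members were all windows that met the rule. Pooled percentages are methylated over all calls with Wilson 95% intervals, and CPM carry exact Poisson intervals. With 1 library or summed sample per group, no test was run and no count model was fitted. Runs, positions and motifs were found with Python 3.11.15, numpy 2.4.6, pandas 2.3.3 and scipy 1.17.1, and the code was tested on simulated windows. No genome was used, so motifs were read in promoter sequences and not in the windows as planned. The members and lists were chosen with earlier results of these data known. Named were the 12 longest runs, the 8 single windows with the most covered cytosines, the 12 genes with the most promoter windows, the 8 with the most windows in all, and list genes with a promoter window. Dnm3os, its locus and the printed sequences were chosen after their values were seen. Alternatives varied the calls, level, thresholds, covered cytosines, runs, promoters and RNA scale.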

Additional observations from a re-analysis of the deposited data

How the results depend on the processing

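Of 47 alternative values, 16 stayed within the 95% interval of the reported value, taken over windows, sequences or genes, or within 1.5 times a reported count, and 31 did not. Taking levels as methylated over all calls moved none of them and kept 6596 of the 7263 windows. The count of 7263 windows became 3037 with at least 20 calls in each library, 33275 with MEFs at most 20% and Gjb2-35delG ESCs at least 50%, and 846 with MEFs at most 5% and Gjb2-35delG ESCs at least 80%. It became 2991 with at least 3 covered cytosines in each library and 1564 with at least 5. The mean Actin-RFP level became 37.3% with at least 10 calls, 37.9% with 20, 33.7% and 40.8% under the wider and the narrower thresholds, and 38% with at least 3 or at least 5 cytosines. The share in runs became 20.4% with at least 10 or 20 calls, 28.5% and 4.73% under the wider and the narrower thresholds, 21.3% and 17.5% with at least 3 and 5 cytosines, and 23.7% when 1 window may lie between members. The promoter share became 5.94% with 20 calls, 3.20% under the narrower thresholds, 6.38% and 6.79% with at least 3 and 5 cytosines, 8.88% for 2000 bp before to 1000 bp after a start, 4.09% for 500 bp on either side and 3.06% for protein-coding genes only. For all covered windows the last 3 shares were 4.28%, 1.71% and 1.56%. The mean number of covered cytosines, 4.73 as reported, became 5.46 and 7.33 with at least 10 and 20 calls and 3.54 under the narrower thresholds. The AP-1 letters, in 9.03% of promoter sequences as reported, were in 20.0% of the few left under the narrower thresholds. The share of genes at least 1 higher in RFP cells was 22.7% as reported. It became 5.68% on log2(CPM + 10) and 0% when each cell weighed the same, against 11.2% and 8.51% of all genes. The share at least 1 lower, 27.3% as reported, became 11.4% in both of these settings, against 10.5% and 19.7% of all genes. The cause of these changes was not tested. Several alternatives also left fewer windows, and log2(CPM + 10) has a larger pseudocount. No paired analysis was possible because each culture has 1 bisulfite library and each group of cells counts as 1 sample. Depth limits single windows most: at 5 calls, 0 methylated calls still allow a level of up to 43.4%.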

Other observations

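Member windows were gathered in places. In bins of 100 kb, 4717 bins held at least 1, and 118 bins held 5 or more, with 842 of the windows (11.6%) between them. Bins with many were looked up after their counts were seen. The bin with Gata4 (chr14:63200001-63300000) held 22, that of the Dnm3os start (chr1:162200001-162300000) also 22, that of Rhcg, an ammonia transporter gene (chr7:79500001-79600000), 20, and that of Onecut1, a factor of liver and pancreas (chr9:74800001-74900000), 19. The bin of Tbx5 held 15, that of Onecut2 on chromosome 18 and a second bin of Dnm3 held 14 each, and that of Trio held 13.

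On the X chromosome, which the rule leaves out, 111 of 225726 covered windows met the same thresholds, 0.492 per 1000, against 0.98 per 1000 on the autosomes. The opposite rule was met by 8.32 per 1000 covered windows on the X chromosome and by 7.83 per 1000 on the autosomes.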
